A study of Mus musculus and Homo sapiens with 22 samples.

Results

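The regions described here are the promoter peaks called for PROX1 in mouse liver but not in mouse fibroblasts. They were selected on the peak positions themselves: a liver peak was a member when its summit, the base with the highest value, lay within 1 kb of an annotated transcription start site (TSS) and when the peak overlapped no peak of the fibroblast list by even 1 bp. Of 50159 liver peaks, 10217 were promoter peaks, and 4717 of these (46.2%, 95% Wilson interval 45.2 to 47.1) had no fibroblast peak over them. The other 5500 promoter peaks were shared with fibroblasts and serve as the comparison, together with 35967 liver peaks away from promoters that also lacked a fibroblast peak. Presence in liver and absence in fibroblasts were fixed by the selection and are not results.

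Sites were mapped by CUT&RUN, in which an antibody tethers a nuclease to the chromatin carrying a protein and the released fragments are sequenced. Liver came from wild-type C57BL/6J mice of 2 to 3 months and was probed with an antibody to endogenous PROX1 (5 samples) or IgG (5 samples). Mouse embryonic fibroblasts (MEFs) of C57BL/6N E13.5 embryos carried rtTA and tetO-FLAG-mmProx1 lentivirus, received doxycycline at 2 µg/ml for 2 days, and were probed with a FLAG antibody (3 samples) or IgG (3 samples). Hep3B, a human hepatocellular carcinoma line, carried pLIX-Puro-hsPROX1, was selected with puromycin, induced with the same doxycycline dose and time, and probed with a FLAG antibody (3 samples) or IgG (3 samples). Liver nuclei were isolated from whole tissue, and the fibroblasts and Hep3B cells made PROX1 from an introduced gene. Tissue, age, strain, antibody, the origin of the factor, virus and doxycycline treatment and the number of replicates changed together between liver and MEFs. They cannot be told apart. Each list pooled the antibody replicates of a group, so that no value per sample, no depth per sample and no spread between replicates can be given, and intervals below cover counting error only.

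PROX1 is a homeobox transcription factor that is expressed in hepatocytes throughout life and is needed for liver development. Mammalian promoters fall broadly into CpG islands, which serve many genes used in every cell, and CpG-poor promoters, which more often serve genes of a single tissue. In hepatocytes the latter are bound by HNF4, HNF1, forkhead, C/EBP and ONECUT factors and by other nuclear receptors, many of which recognise AGGTCA half-sites.

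The sequences below show what such sites look like. They reach 100 bp to each side of the summit on the forward strand of GRCm38, for the 8 members with the highest summit −log10 p among genes of the liver function lists described below, leaving out windows that reach an annotated UTR or lie on a chromosome that is not printed. Capitals mark a match on either strand to 1 of 6 motifs of liver factors, namely AGGTCA (nuclear receptor half-site), CAAAGTCCA (HNF4), TTAATNATT (HNF1 core), TGTTTNC (forkhead), TTGCNNAA (C/EBP) and ATCGAT (ONECUT core).
Nr0b2, chr4:133552940-133553140: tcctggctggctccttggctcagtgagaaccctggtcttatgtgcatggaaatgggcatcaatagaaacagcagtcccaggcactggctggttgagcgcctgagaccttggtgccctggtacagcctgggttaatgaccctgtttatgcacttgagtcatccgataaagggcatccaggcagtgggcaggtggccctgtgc
Prlr, chr15:10249215-10249415: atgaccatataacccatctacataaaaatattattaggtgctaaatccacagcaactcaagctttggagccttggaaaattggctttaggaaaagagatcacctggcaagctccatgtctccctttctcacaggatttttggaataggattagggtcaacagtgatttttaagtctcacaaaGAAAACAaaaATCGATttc
Apoc3, chr9:46235722-46235922: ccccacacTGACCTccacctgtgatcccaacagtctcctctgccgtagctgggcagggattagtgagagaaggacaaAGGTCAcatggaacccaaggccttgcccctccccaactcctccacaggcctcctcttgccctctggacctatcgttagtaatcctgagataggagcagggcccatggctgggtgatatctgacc
Cyp3a13, chr5:137921748-137921948: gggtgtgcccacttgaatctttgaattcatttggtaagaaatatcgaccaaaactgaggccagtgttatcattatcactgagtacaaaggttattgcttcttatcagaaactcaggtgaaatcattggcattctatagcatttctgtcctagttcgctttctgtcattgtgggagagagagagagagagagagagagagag
G6pc, chr11:101367293-101367493: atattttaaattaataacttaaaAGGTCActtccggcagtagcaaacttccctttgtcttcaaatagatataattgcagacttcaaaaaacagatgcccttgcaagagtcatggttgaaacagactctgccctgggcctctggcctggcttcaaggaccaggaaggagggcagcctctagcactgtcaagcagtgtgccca
Saa1, chr7:46743030-46743230: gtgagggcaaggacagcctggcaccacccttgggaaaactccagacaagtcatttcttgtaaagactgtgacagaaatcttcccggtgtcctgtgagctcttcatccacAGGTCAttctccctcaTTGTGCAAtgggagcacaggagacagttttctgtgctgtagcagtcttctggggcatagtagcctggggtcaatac
Acox2, chr14:8258345-8258545: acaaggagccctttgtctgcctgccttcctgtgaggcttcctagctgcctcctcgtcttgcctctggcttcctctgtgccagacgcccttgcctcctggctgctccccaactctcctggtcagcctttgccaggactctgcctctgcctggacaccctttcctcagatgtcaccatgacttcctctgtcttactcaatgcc
Hgd, chr16:37579735-37579935: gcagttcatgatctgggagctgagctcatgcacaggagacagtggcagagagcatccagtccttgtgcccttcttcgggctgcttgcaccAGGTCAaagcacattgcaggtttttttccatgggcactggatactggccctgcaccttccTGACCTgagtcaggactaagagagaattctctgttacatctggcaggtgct

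Nr0b2, the small heterodimer partner that restrains bile acid synthesis, Cyp3a13 and Acox2 held none of the 6 motifs in this window. Prlr, the prolactin receptor, held a forkhead and an ONECUT match side by side. Apoc3, an inhibitor of triglyceride clearance, and Hgd, an enzyme of tyrosine breakdown, held AGGTCA on both strands, G6pc, the last enzyme of glucose release, held it once, and the acute-phase gene Saa1 held it next to a C/EBP match. The summits at Nr0b2, Apoc3, Cyp3a13, G6pc, Saa1 and Hgd lay outside annotated genes and upstream of the TSS, at −336, −186, −229, −168, −150 and −318 bp. The Prlr summit lay within an intron, at −245 bp from an internal TSS, and the Acox2 summit lay in an intron, at 387 bp from the TSS of a protein-coding transcript.

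CpG content separated the liver-only from the shared promoter peaks. The sequence within 250 bp of the summit was called CpG-rich when its observed/expected CpG ratio was at least 0.6 and its GC content at least 50%. By this definition 188 members (3.99%) were CpG-rich, against 3047 shared promoter peaks (55.4%), a difference of −51.4 percentage points (95% Newcombe interval −52.8 to −50). The median observed/expected ratio was 0.2338 in members, 0.6734 in shared promoter peaks and 0.1896 in liver-only peaks away from promoters. The median GC content was 47.5% in members and 56.69% in shared promoter peaks. Members were thus closer in base composition to the distal liver peaks than to the promoters shared with MEFs.

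The share of promoter peaks that were liver-only fell with each step of CpG content. It was 87.6% (1895 of 2163) below a ratio of 0.2, 71.4% (1989 of 2787) from 0.2 to 0.4, 33.8% (571 of 1689) from 0.4 to 0.6, 9.98% (191 of 1914) from 0.6 to 0.8 and 4.27% (71 of 1664) from 0.8 upwards. The intervals of neighbouring steps did not overlap. CpG-poor promoter peaks were liver-only in 64.9% and CpG-rich ones in 5.81%.

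**Figure D1:**
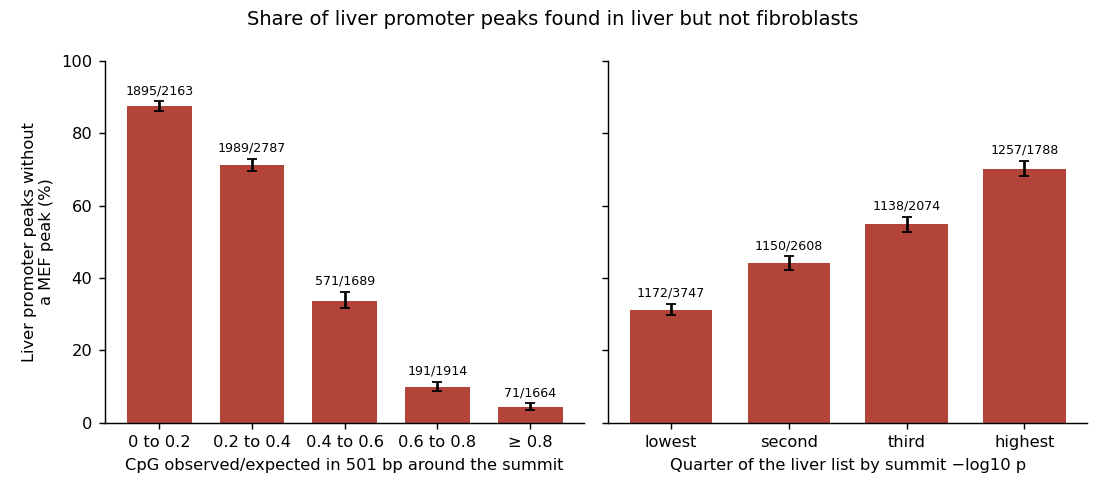
Share of liver promoter peaks without a MEF peak (y axis, %) by observed/expected CpG ratio (left) and by 4 groups of equal size of the whole liver list ranked on summit −log10 p (right). Bars are shares, error bars 95% Wilson intervals and labels the liver-only and total promoter peaks. The share falls from 87.6% to 4.27% with CpG content and rises from 31.3% to 70.3% with peak strength.

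Genes with both kinds of promoter peak allow both windows to be set side by side. The windows below reach 50 bp to each side of the summit on the forward strand of GRCm38, with every CG dinucleotide in capitals. Genes with a shared liver peak as well and a MEF summit over 2000 bp away were ranked by liver-only −log10 p, under the same exclusions, and the first 2 with a CpG-rich shared peak and the first 2 with a CpG-poor one are shown, a choice made after the values were seen.
Pacsin2 liver-only peak, chr15:83432908-83433008: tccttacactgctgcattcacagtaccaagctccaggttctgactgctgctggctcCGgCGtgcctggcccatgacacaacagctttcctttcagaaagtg
Pacsin2 shared peak, chr15:83464792-83464892: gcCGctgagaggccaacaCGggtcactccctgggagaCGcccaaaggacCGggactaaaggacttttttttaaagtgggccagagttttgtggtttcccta
Capn15 liver-only peak, chr17:25980253-25980353: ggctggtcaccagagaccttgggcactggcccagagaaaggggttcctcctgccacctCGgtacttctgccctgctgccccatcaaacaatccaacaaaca
Capn15 shared peak, chr17:25985997-25986097: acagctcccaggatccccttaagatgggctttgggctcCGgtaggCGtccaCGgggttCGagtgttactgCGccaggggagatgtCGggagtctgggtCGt
Fam107b liver-only peak, chr2:3704676-3704776: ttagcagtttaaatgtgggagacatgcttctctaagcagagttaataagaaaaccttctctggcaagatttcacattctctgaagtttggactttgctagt
Fam107b shared peak, chr2:3712460-3712560: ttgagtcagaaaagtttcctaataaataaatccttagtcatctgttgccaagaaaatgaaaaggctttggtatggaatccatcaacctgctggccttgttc
Cers2 liver-only peak, chr3:95319708-95319808: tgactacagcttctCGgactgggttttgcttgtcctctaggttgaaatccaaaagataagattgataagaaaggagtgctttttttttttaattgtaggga
Cers2 shared peak, chr3:95315676-95315776: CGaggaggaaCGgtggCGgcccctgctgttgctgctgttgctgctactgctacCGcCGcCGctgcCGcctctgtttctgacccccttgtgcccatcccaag

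At Pacsin2 and Capn15 the shared peak was CpG-rich. Within 250 bp of the summit Pacsin2, a membrane-bending protein, held 6 CG dinucleotides at the liver-only peak and 28 at the shared one, and the observed/expected ratios were 0.1859 and 0.7341. At Capn15, a calpain family gene, the counts were 5 and 30 and the ratios 0.139 and 0.731. At Cers2, a ceramide synthase, the counts were 3 and 27, but with a ratio of 0.5585 the shared peak was CpG-poor. At Fam107b neither shown window held any, and within 250 bp the counts were 4 and 3.

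Members were of middling strength within the liver list, with a median percentile of 50.75, and shared promoter peaks were weaker. Their summit −log10 p had a median of 12.24 (quartiles 10.15 and 15.38, highest 34.67), against 10.33 in shared promoter peaks and 12.5 in liver-only distal peaks. With all liver peaks ranked and divided into 4 groups of equal size, 31.3% of the promoter peaks in the lowest group were liver-only, then 44.1% and 54.9%, and 70.3% in the highest. Among promoter peaks in the top 1% of the list the figure was 47 of 64 (73.4%, interval 61.5 to 82.7). The rise with strength was seen among CpG-poor promoter peaks, from 54.8% to 76%, whereas among CpG-rich ones the share was 4.98% in the lowest group and 6.76% (interval 3.71 to 12) in the highest. Members were about as wide as shared promoter peaks, with medians of 539 and 536 bp.

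The 10 members with the highest summit −log10 p were led by Nr0b2 (34.67, rank 5 of the liver list) and included other genes of hepatocyte metabolism and secretion. Gpt, alanine aminotransferase, reached 30.71 within an intron. Ttr, the thyroxine and retinol carrier of plasma, reached 28.77, and the summit lay in a non-coding exon of the overlapping gene Gm16090. Mup11, a major urinary protein, reached 27.06 at −764 bp. Fgf1, a fibroblast growth factor, reached 26.28 in the 5′ UTR of an annotated transcript.

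The other 5 were AY036118 (30.97), C730002L08Rik (28.38), Gm33699 (27.43), Morc3 (26.82) and D630039A03Rik (26.53). AY036118 was the single CpG-rich region of the 10, with an observed/expected ratio of 1.005. It lay 682 bp from a MEF peak, and Gpt lay 550 bp from one, whereas the other 8 were at least 4866 bp away.

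Members as a whole sat less tightly on the TSS than shared promoter peaks did, a difference that was nearly gone among CpG-poor peaks. The median distance of the summit to the nearest TSS was 387 bp, against 160 bp, and 21.9% against 37.3% lay within 100 bp. Within CpG-poor peaks alone the medians were 395 and 365 bp, and 20.9% against 20.2% lay within 100 bp. Both classes peaked in the 100 bp upstream of the TSS, which held 13.9% of members and 22.9% of shared peaks. From there the members levelled off at 3.24% to 5.22% per 100 bp on the downstream side beyond 100 bp, while shared peaks declined to 1.76%. Summits of members lay in introns in 54.3%, outside genes in 21.6%, in non-coding exons in 12.4%, in 5′ UTRs in 6.13% and in coding exons in 4.18%. The shares for shared promoter peaks were 30.7% in introns, 37.1% outside genes and 18.7% in 5′ UTRs. Among CpG-poor peaks alone, 55% of members and 43.7% of shared peaks lay in introns and 5.59% and 9.46% in 5′ UTRs.

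**Figure D2:**
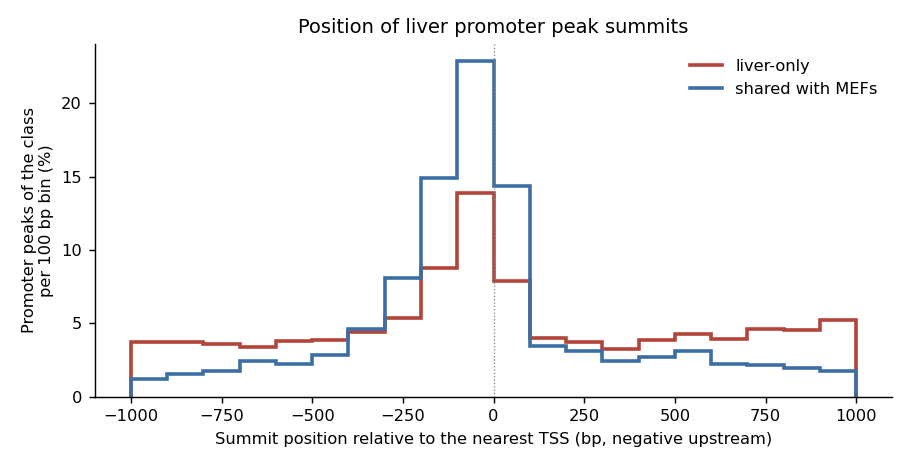
Position of the summit relative to the nearest TSS (x axis, bp, negative upstream) for liver-only and shared liver promoter peaks, as a share of each class per 100 bp (y axis, %). Both classes are highest just upstream of the TSS, at 13.9% and 22.9%, and the liver-only class keeps more summits far from it.

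The kind of TSS differed as well. The nearest TSS belonged to a protein-coding gene in 69.9% of members, 87.8% of shared promoter peaks and 61.4% of liver-only distal peaks. A TSS of a protein-coding transcript lay within 1 kb in 49.8% of members and 89.1% of shared promoter peaks. By type of gene, 92.6% (213 of 230) of promoter peaks nearest to a processed pseudogene were liver-only, 67.3% (413 of 614) of those nearest to a lincRNA, 60.7% (242 of 399) of those nearest to an antisense RNA and 40.6% (3295 of 8124) of those nearest to a protein-coding gene. Of 117 promoter peaks nearest to a microRNA gene, 81 were members. They included a peak near Mir122, the abundant microRNA of hepatocytes (18.6), which was picked out after its value was seen. Its summit lay 841 bp from the annotated start of Mir122, which was not shown to be the promoter of that microRNA. Promoter peaks at bidirectional promoters of long non-coding RNAs and at processed transcripts were liver-only in 23.8% (10 of 42) and 44.2% (72 of 163). Whether the annotated starts of these gene types act as promoters in liver was not tested.

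Motif content was counted within 50 bp of the summit on both strands, and the share of windows on all 54327 TSSs of protein-coding transcripts is given for reference. These 12 motifs are short, some overlap in part, and a match is a description of the letters. AGGTCA lay in 16% of members (754), 8.11% of shared promoter peaks, 18.2% of liver-only distal peaks and 4.41% of TSS windows. The difference between members and shared promoter peaks was 7.88 points (Newcombe interval 6.61 to 9.15). Within CpG-poor peaks alone it was 4.6 points (2.9 to 6.23), at 16.3% against 11.7%. Base composition still differed among CpG-poor peaks. The median observed/expected CpG ratio was 0.2275 in members and 0.435 in shared peaks, and the median GC content 47.11% and 49.9%.

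The other liver factor motifs were also more frequent in members. TGTTTNC lay in 13.2% of members and 6.4% of shared peaks, TTGCNNAA in 8.08% and 5.04%, CAAAGTCCA in 1.7% and 0.4%, TTAATNATT in 1.1% and 0.218%, and ATCGAT in 1.19% and 0.636%. None of these 5 differences had an interval that reached 0. Within CpG-poor peaks the forkhead difference was 5 points (3.48 to 6.46) and those of the HNF4 and HNF1 motifs were 1.13 (0.617 to 1.61) and 0.718 (0.284 to 1.12). The intervals of the C/EBP difference (−0.55 to 2.06) and of the ONECUT difference (−0.267 to 0.755) included 0 there. At least 1 of the 6 motifs was present in 35.4% of members, 40.6% of liver-only distal peaks, 18.9% of shared promoter peaks and 12.7% of TSS windows, so that 64.6% of members held none of them within 50 bp of the summit. In liver-only distal peaks TGTTTNC lay in 14.7%, TTGCNNAA in 10% and TTAATNATT in 1.55%, each above its share in members.

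Motifs of CpG-island promoters went the other way. CCGCCC (SP/KLF) lay in 4.52% of members and 26.4% of shared peaks, GCGCANGC (part of the NRF1 site) in 0.678% and 5.95%, and CCGGAAG (ETS) in 0.615% and 5.15%. These letters contain CG, whose frequency already differed between the classes. Within CpG-poor peaks the differences were −7.36 (−8.74 to −6.07), −0.696 (−1.23 to −0.261) and −1.47 points (−2.12 to −0.92). CG was less frequent in members there too, with median ratios of 0.2275 and 0.435, so that these differences do not hold CG content fixed. TATAAA lay in 3.31% of members, 1.53% of shared peaks and 4.01% of TSS windows. CCAAT (NF-Y) was found in 13.2% and 13.4%, a difference of −0.192 points with an interval of −1.51 to 1.13. CACTAG (part of the CTCF site) was found in 3.6% and 3.33%, with an interval of the difference of −0.432 to 0.999.

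**Figure D3:**
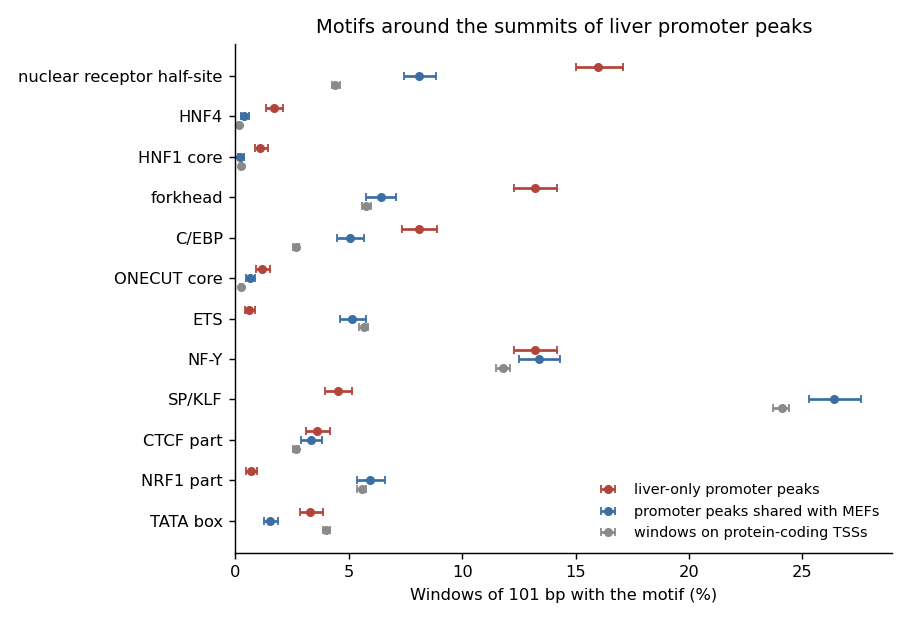
Share of windows of 50 bp to each side with each of the 12 motifs (x axis, %, with 95% Wilson intervals) in liver-only promoter peaks, promoter peaks shared with MEFs and windows on protein-coding TSSs. Nuclear receptor, HNF4, HNF1, forkhead, C/EBP and ONECUT motifs are highest in the liver-only class, and ETS, SP/KLF and NRF1 motifs are lowest there.

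AGGTCA was concentrated at the summit of the members. It was present in 4.01% of members in each of the 20 bp bins on either side of the summit and in 1.46% and 1.55% at the outermost bins, 220 to 240 bp away. In shared promoter peaks the same bins held 2.13% and 1.69% at the summit and 1.18% and 1.04% at the edges. The share of members with AGGTCA was 14.4% among the 1172 members in the lowest and 16.9% among the 1257 in the highest of 4 groups of equal size of the whole liver list, ranked by summit −log10 p.

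**Figure D4:**
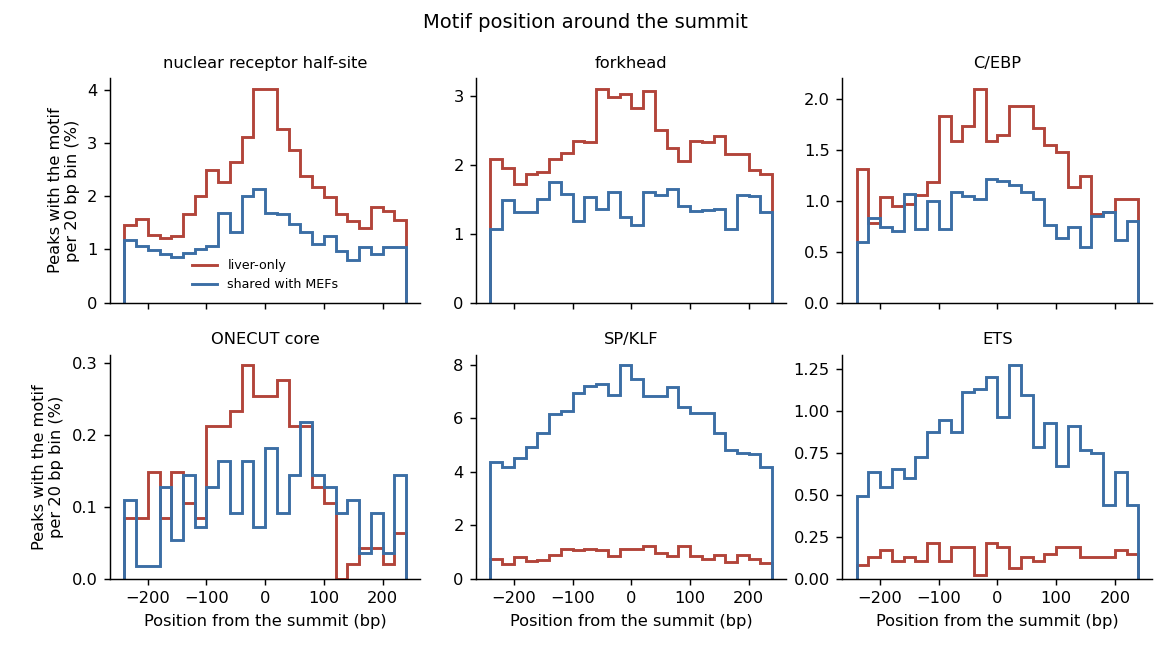
Share of peaks with a motif in each 20 bp bin (y axis, %) against the distance from the summit (x axis, bp) for 6 motifs, in liver-only promoter peaks and those shared with MEFs. The nuclear receptor half-site reaches 4.01% of liver-only peaks at the summit and falls to 1.46% and 1.55% at the edges, while SP/KLF and ETS motifs stay low throughout the liver-only class.

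A protein-coding gene was counted with a liver-only peak when a member's summit lay within 1 kb of the TSS of 1 of its protein-coding transcripts. This held for 1882 of 21829 genes (8.62%). Any liver promoter peak was present at 26.7% of genes and a MEF promoter peak at 55.4%. Most of the 1882 genes (1475) had 1 member, and 3 genes had 6 each, namely Csad, an enzyme of taurine synthesis, Hnf4a and Prlr. Gene lists were written from general knowledge, but with earlier results of these data known. Counts of list genes with a liver-only peak are set against 8.62%. Of all protein-coding genes, 18% (3936) had shared liver promoter peaks only and 33.1% (7219) had a MEF promoter peak but none in liver.

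**Figure D5:**
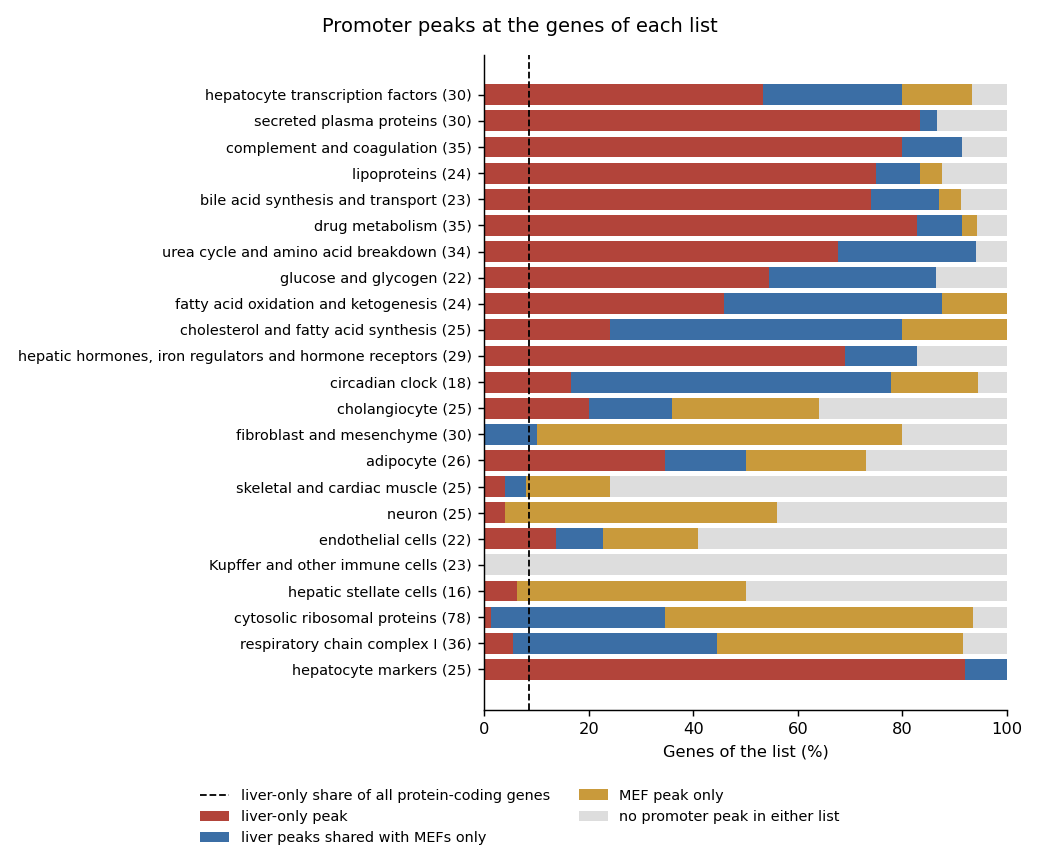
Genes of each list (number found in parentheses) with a liver-only promoter peak, with liver peaks that are all shared with MEFs, with a MEF promoter peak only, or with neither (x axis, % of the list). The dashed line marks 8.62%, the liver-only share of all protein-coding genes. Secreted plasma proteins (25 of 30) and drug metabolism (29 of 35) are above it and cytosolic ribosomal proteins (1 of 78) below.

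Genes of hepatocyte function carried most of the liver-only peaks that the lists held. Across 12 lists of liver function, 208 of 329 genes (63.2%) had a liver-only peak, against 20 of 187 genes (10.7%) in 8 lists of other cell types. The best peak was CpG-poor in 98.1% of the 208 genes, in 95% of the 20 and in 92.5% of all 1882 genes with a liver-only peak. Of 25 hepatocyte markers, 23 had a liver-only peak, and the other 2 had a shared one.

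Among secreted plasma proteins, 25 of 30 genes had a liver-only peak. Ttr was the highest, followed by Saa1 (22.64), the protease inhibitor Serpina1b (21.51) and Fetub (21.09). The peak of Alb, serum albumin, reached 14.04 and its summit lay in a coding exon 63 bp downstream of the TSS. Complement and coagulation gave 28 of 35 genes, and all 28 lacked a MEF promoter peak. They were led by coagulation factor F11 (19.97), the fibrinogen chain Fga (19.82), complement C6 (19.37) and coagulation factor F9 (19.32).

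Lipoprotein genes gave 18 of 24, with Apoc3 (24.9), hepatic lipase Lipc (21.86) and Apoa1 (18.23), the main protein of HDL. Bile acid genes gave 17 of 23. Acox2, which shortens bile acid side chains, reached 22, the bile acid ligase Slc27a5 reached 19.63, Baat, which conjugates bile acids to amino acids, reached 19.13 and the organic anion carrier Slco1a1 reached 18.85. Drug metabolism gave 29 of 35, with the cytochrome P450 genes Cyp3a13 (24.62) and Cyp2c50 (20.4) and the carboxylesterase genes Ces1d (20.84) and Ces3a (20.42). Several of these families have near-identical copies, between which short reads can be assigned wrongly.

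Amino acid breakdown and the urea cycle gave 23 of 34, led by Hgd (21.65), Aass (21.38) of lysine breakdown, Mat1a (21.37), which makes S-adenosylmethionine, and Cbs (20.85). Glucose and glycogen genes gave 12 of 22, with G6pc (24.3), pyruvate carboxylase Pcx (20.1), Pck1 (19.33) of gluconeogenesis and liver glycogen phosphorylase Pygl (18.56). Hormones, iron regulators and receptors gave 20 of 29, with Prlr (25.69), Igfbp4 (22.42), the activin-family subunit gene Inhbc (21.36) and Lifr (18.38), a receptor chain for leukaemia inhibitory factor.

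Of 30 hepatocyte transcription factors, 16 had a liver-only peak. Nr0b2 was the highest, and others included the bile acid receptor gene Nr1h4 (20.82) and the xenobiotic receptor gene Nr1i3 (18.53). Prox1 itself had 2 members, the stronger of which reached 13.71 at −6 bp from a TSS and was CpG-rich. No MEF peak lay within 194847 bp of either. Hnf4a had 6 members between 6.779 and 12.47, spread over chr2:163506581-163551307, and none of its promoters carried a MEF peak.

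Fatty acid oxidation, lipid synthesis, the clock and general cell functions had fewer liver-only and more shared promoter peaks. Fatty acid oxidation gave 11 of 24, led by Acsl1 (23.42), which activates long-chain fatty acids, Acaa1b (20.15), Bdh1 (18.59) and Acot12 (16.64), and 10 further genes had shared liver peaks only. Cholesterol and fatty acid synthesis gave 6 of 25, and 14 had shared peaks only. All 6 also had a MEF promoter peak, and the highest were Acaca (15.5), Insig2 (14.02), Mlxipl (11.88) and Acacb (10.86). The clock gave 3 of 18, namely Hlf (18.91), Npas2 (13.38) and Bhlhe40 (8.477), and 11 had shared peaks only. Ribosomal protein genes gave 1 of 78, Rps10 (11.12), and complex I genes gave 2 of 36, Ndufv3 (11.2) and Ndufa6 (8.531).

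Lists of other cell types were mostly near or below the background of 8.62%. No gene of 30 fibroblast and mesenchyme genes had a liver-only peak, and 21 of them had a MEF peak only, against 33.1% of all protein-coding genes. Muscle gave 1 of 25 (Myh9, 8.342), neurons 1 of 25 (Ank3, 13.14), stellate cells 1 of 16 and endothelial cells 3 of 22, namely Tie1 (18.71), Fcgr2b (11.28) and Egfl7 (10.29). None of 23 genes of Kupffer and other immune cells had a promoter peak in either list. Cholangiocyte genes gave 5 of 25, with Krt8 (16.81), Pkhd1 (13.04) and Spp1 (11.5) among them. Adipocyte genes stood above the background with 9 of 26, among them Pparg (23.56), Klf15 (20.1), the glycerol phosphate acyltransferase gene Gpam (19.35) and the fatty acid transporter gene Cd36 (18.26), and 7 of the 9 also had a MEF promoter peak elsewhere at the gene.

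Of the identity genes that the study examined, Alb, Ttr, Hnf4a and Prox1 had liver-only promoter peaks and no MEF promoter peak. Pparg and Myh9 had a liver-only and a shared promoter peak. Ebf2 and Myc had shared peaks, Sox9, Prrx1, Map2 and Tjp1 had MEF promoter peaks but none in liver, and Krt19, Hand2, Tubb3 and Des had neither.

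A liver-only peak did not mean that the gene lacked a PROX1 peak in MEFs. Of the 1882 genes, 971 (51.6%, interval 49.3 to 53.8) had a MEF promoter peak over another stretch, against 55.4% of all protein-coding genes, and 639 had a shared liver peak besides the liver-only one. In these 971 genes the median distance between the liver summit and the MEF summit was 1585 bp. It was over 2000 bp in 439 genes, in 436 of which the liver-only peak was CpG-poor and in 269 of which liver also had a shared promoter peak. At Pparg, the master regulator of fat cells, the liver-only peak (chr6:115420584-115422583, 23.56) lay in an intron and 60776 bp from the MEF summit, while the first promoter had a shared liver peak of 9.07.

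Acsl1 followed, with 19549 bp between a liver-only summit of 23.42 and the MEF summit. Fam107b (23.05) and Adra1b, an adrenergic receptor gene (23.04), had summits 8629 and 64652 bp apart. Cyb5r3 (22.49), Igfbp4 (22.42), Rnf121 (22.31) and Fkbp8 (22.05) completed the 8 highest, with 2518, 5707, 4523 and 2041 bp. At Fkbp8 the edges of the liver and MEF peaks were 265 bp apart.

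Members of the 911 genes without a MEF promoter peak lay in introns in 36.7% and outside genes in 40.7%. Those of the genes with one lay in introns in 66.5% and outside genes in 12.8%.

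Members were spread over the genome with some dense stretches. Of 1302 bins of 1 Mb with a member, the median bin held 3, and 68 bins with 10 or more held 835 members in all. The densest was the major urinary protein cluster at chr4:60000001-61000000, where all 20 liver promoter peaks were members, with a median −log10 p of 16.75. This cluster is made of near-identical gene copies and pseudogenes, so that single reads cannot always be placed. Next came chr7:45000001-46000000 with Fgf21 and Bcat2 (19 of 33), chr10:127000001-128000000 with the Inhbe, Inhbc and Rdh genes (18 of 30), chr11:120000001-121000000 with Gcgr (17 of 37) and chr12:84000001-85000000 with the Acot genes (17 of 29). The Cyp2d cluster at chr15:82000001-83000000 also held 17 of 21. Bins were ranked by their number of members, so that bins with many promoter peaks rank high. Over all liver promoter peaks 46.2% were members, and the 17 of 37 on chromosome 11 did not exceed that share. By chromosome the liver-only share of promoter peaks ran from 36.4% on chromosome 11 to 62.4% (88 of 141, interval 54.2 to 70) on the X chromosome.

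In Hep3B, genes with a liver-only peak carried a PROX1 promoter peak about as often as all genes did. They did so less often than genes whose liver peaks were all shared with MEFs. Of 1556 such genes with a human gene of the same symbol, 758 (48.7%) had a Hep3B promoter peak, against 2838 of 3569 (79.5%), a difference of −30.8 points (Newcombe interval −33.6 to −28). Over all 15736 genes with a symbol in both species the share was 48.9%. Within the liver-only genes it was 70.8% (638 of 901) where MEFs also had a promoter peak and 18.3% (120 of 655) where MEFs had none. Genes with shared peaks have a MEF peak over the liver peak by the selection, so the comparison with them is not separate from the presence of MEF peaks. The Hep3B share was 48.4% for liver-only genes whose best member was CpG-rich and 48.7% for CpG-poor ones. Of the liver-only genes in the 12 liver function lists, 43 of 173 had a Hep3B peak.

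The 120 genes with promoter peaks in liver and Hep3B but not in MEFs included 21 of the liver lists. Of all 911 liver-only genes without a MEF promoter peak, with or without a human symbol, 162 were in these lists. The best liver peak was CpG-rich at 22 of the 120. Counted by peak, 98 of 1158 members at genes without a MEF promoter peak were CpG-rich. Ranked by liver −log10 p, after these values were seen, they began with Nr0b2 (6.413 in Hep3B), Mylk (6.349), Aass (5.424), Cyp1a1 (5.076) and Enpp3 (7.252). F2, prothrombin, C3, the central complement component, and Apoa2 were also among them, as were Prox1, Nr5a2 and Krt8. Values of −log10 p are not on a common scale between the lists. The median percentile of these genes' best peaks within the Hep3B list was 44.56.

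Values on both sides of the selection limits were close. There were 417 members with a summit over 900 and up to 1000 bp from a TSS and 422 liver-only peaks over 1000 and up to 1100 bp away. Just inside stood peaks at Gm19461, Bcar3 and Frrs1, at 1000 bp with −log10 p of 18.29, 17.1 and 13.42, and just outside, by 1 bp, those at Gm42626, Mir3105 and Crlf3 with 14.46, 12.23 and 10.92. The median gap from a member to the nearest MEF peak was 9020 bp, 2243 members (47.6%) were over 10 kb from one and 157 were less than 100 bp from one. Members at Mir670hg (15.54), Nfic (9.829) and Tmem106b (9.58) touched a MEF peak without overlap. Shared peaks at Nucb1, Hist2h4 and Tedc2 overlapped one by 1, 2 and 2 bp, with 8.966, 10.88 and 10.7. Of the shared promoter peaks, 5083 overlapped a MEF peak over at least 50% of the shorter of the pair. The liver list starts at an area of 500 and the MEF list at 200.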

How the data were processed

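CUT&RUN was performed on 22 samples in 6 groups, taken from the sample labels. Per their methods, the authors trimmed paired reads with Trim Galore 0.6.6, aligned them with Bowtie 2 2.4.2 to mm10 or hg38, removed duplicates and mitochondrial reads, and called 1 consensus list per antibody group over its replicates with Genrich 0.6.1 at a lenient q-value limit. The study presents its sites as called against IgG, but its stated Genrich command lists no control file, and how IgG entered the calls is not given in the sources used here. The score that the authors deposited has an upper limit set by the caller and was not used. Their deposited signal, here called area, sums significance over the bases of a peak. The deposited −log10 p is that of the summit and was used to rank peaks within a list. No value was normalized between lists. For its target genes the study kept only peaks that held a PROX1 motif, whereas no PROX1 motif was required of a peak here.

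Summits were placed on GENCODE M21 (mouse) and GENCODE 44 (human) TSSs, and sequence was read from GRCm38 (RefSeq), within whose chromosome ends all liver peaks lay. CpG content was computed within 250 bp of a summit and motifs within 50 bp. Sequence of mouse chromosomes 8 and 18 is not printed. Human genes were matched by identical symbol in capitals. Shares were given 95% Wilson intervals and their differences 95% Newcombe intervals, and no p-value was computed, since the lists pool replicates and members were selected on the data. The members, gene lists, motifs and rules were chosen with earlier results of these data known. Genes named were the 10 strongest members, up to 4 of each list, the identity genes of the study, the 5 densest 1 Mb bins, the 8 strongest with a MEF summit over 2 kb away and the regions next to the limits. The other genes were picked after their values were seen. Some genes that the rule names are not reported here. Functions were tested on simulated data. Python 3.11.15, NumPy 2.4.6, pandas 2.3.3 and matplotlib 3.10.9 were used. The alternatives are listed with their effects at the end.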

Additional observations from a re-analysis of the deposited data

How the results depend on the processing

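There were 50 alternative values of 6 results. Those that were differences of shares all kept their sign, while plain counts have no direction that could change. With a promoter window of 500 bp there were 2788 liver-only promoter peaks, 1243 genes with one and 443 of these with a MEF promoter peak. The difference in CpG-rich share was then −60.3 points and that in Hep3B peaks −38.5 points. With a window of 2000 bp the values were 8440, 3194, 2156, −46 and −22. With protein-coding TSSs only there were 2351 peaks, and the AGGTCA difference was 6.57 points. The gene counts and the Hep3B difference already used protein-coding TSSs, so that this setting could not change them. With only liver peaks above the median −log10 p there were 2395 peaks, 1016 genes and 435 genes with a MEF promoter peak, and the CpG-rich and AGGTCA differences were −35.9 and 4.81 points. With liver areas of at least 1000 there were 3224 peaks and 1334 genes. Of these genes 599 had a MEF promoter peak, and the CpG-rich and Hep3B differences were −45.9 and −34.6 points. The CpG-rich and Hep3B differences were −49.1 and −34.4 points with MEF peaks widened by 200 bp, and −53.3 and −27.7 points with an overlap of at least 50% of the shorter peak. Peaks then numbered 4405 and 5134, and genes 1671 and 2193, of which 764 and 1279 had a MEF promoter peak. CpG content within 150 bp of the summit gave −48.5 points, and motifs within 100 bp gave an AGGTCA difference of 11.5 points. The cause of these changes was not tested, beyond the number of peaks that each setting admits.

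No paired analysis was possible because each list pools the replicates of a group, and for the same reason no replicate could be left out. The lists give no depth, so that a missing MEF peak means only that none was called in a list starting at an area of 200. With MEF peaks held to the liver floor of 500, the members numbered 5612, and 2363 protein-coding genes had one.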
